A study of Mus musculus with 4 samples.

Results

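*Foxo1*, *Foxo3* and *Foxo4*, which encode Foxo transcription factors, and 6 genes that FOXO1 protein is known to induce, *Klf2*, *S1pr1*, *Sesn1*, *Ccng2*, *Cdkn1b* and *Irs2*, were followed on arrays of *Ebf1*-/- cells infected with a control virus or a *Mir195* virus. The members were taken by gene name, as general knowledge and earlier results of these data gave them. The 9 genes were represented by 12 of the 39429 probes on the array, 5 for the Foxo factors and 7 for the induced genes. RNA was measured in 4 samples, 2 infected with the empty virus MDH1-PGK-GFP (EMPTY) and 2 with the same virus carrying a human genomic segment around *Mir195*, amplified from a leukaemia cell line (*Mir195*). All 4 samples were lineage-negative fetal liver cells of *Ebf1*-/- embryos, which lack the B lineage factor EBF1, and both groups therefore carried the deletion. They were grown on OP9 stroma cells with SCF, IL-7 and Flt3-ligand, each at 10 ng/mL, and the labels place them around the pro-B cell stage. Neither the labels nor the methods say whether embryos were pooled, whether the replicates were separate cultures, or whether infected cells were sorted by GFP before RNA was taken.

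Foxo proteins are forkhead transcription factors whose activity is set largely after translation. When growth factor or cytokine receptors activate the PI3K-Akt pathway, Akt and related kinases phosphorylate them, 14-3-3 proteins bind them, and they leave the nucleus and may be degraded; when this signal is low they enter the nucleus and switch on genes of cell cycle exit, stress defence, metabolism and lymphocyte traffic. In the B lineage, FOXO1 acts with EBF1 on genes such as those of the IL-7 receptor and the RAG recombinase. The transcripts of the factors and those of the genes they induce are thus separate readouts, and the arrays measured neither the amount nor the phosphorylation of FOXO1 protein.

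The microRNA in the virus belongs to a family that shares the seed, the bases by which a microRNA pairs with its targets. The mature mouse sequences of 4 members are given as RefSeq lists them for GRCm38.p6, with the seed, bases 2 to 8, in capitals, because they show which endogenous microRNAs have the same seed as the one delivered. RefSeq lists 10 mouse microRNAs with this seed, and mmu-miR-195a-5p itself lies at chr11:70235062-70235082 on the + strand.
mmu-miR-195a-5p: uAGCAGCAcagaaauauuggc
mmu-miR-497a-5p: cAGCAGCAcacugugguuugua
mmu-miR-15a-5p: uAGCAGCAcauaaugguuugug
mmu-miR-16-5p: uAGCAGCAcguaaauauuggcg

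The sequences of 2 probes are shown because *Foxo1* and *Irs2* later turn out to share a pattern across the arrays. Each probe has 60 bases and is printed as the array lists it, in lower case, since no part of it is singled out.
Foxo1 A_51_P138044: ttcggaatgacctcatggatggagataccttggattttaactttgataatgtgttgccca
Irs2 A_66_P102260: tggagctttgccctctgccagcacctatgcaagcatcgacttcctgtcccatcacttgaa
The *Foxo1* probe contains 40% G and C bases and the *Irs2* probe 53.3%, and the median over all probes of the array was 41.7%.

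Foxo proteins bind DNA at a short element, TGTTTAC or its reverse complement GTAAACA, and at the insulin response sequence CAAAACA or TGTTTTG. Both strands of the RefSeq promoters, 250 bases before to 50 after the start of a transcript, were searched in GRCm38.p6, and 8 promoters of 7 member genes were found. TGTTTAC occurred in 1 of the 8 promoters, one of a pair at *Sesn1*, and in 3.65% of all 32851 promoters of this length. CAAAACA occurred in 2, those of *Ccng2* and *Irs2*, and in 6.28% of all. The core TGTTT, which both elements contain on one strand or the other, occurred in 6 of the 8 and in 50.5% of all. The 3 promoters with a longer element are shown, with the matches to the elements and the core in capitals.
Sesn1 promoter, chr10:41810324-41810623, strand +: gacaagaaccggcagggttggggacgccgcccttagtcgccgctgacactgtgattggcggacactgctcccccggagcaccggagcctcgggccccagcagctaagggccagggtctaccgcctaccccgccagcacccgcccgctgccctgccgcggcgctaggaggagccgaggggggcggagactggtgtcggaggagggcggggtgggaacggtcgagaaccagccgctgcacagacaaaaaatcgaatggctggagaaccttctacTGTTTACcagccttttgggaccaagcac
Ccng2 promoter, chr5:93267323-93267622, strand +: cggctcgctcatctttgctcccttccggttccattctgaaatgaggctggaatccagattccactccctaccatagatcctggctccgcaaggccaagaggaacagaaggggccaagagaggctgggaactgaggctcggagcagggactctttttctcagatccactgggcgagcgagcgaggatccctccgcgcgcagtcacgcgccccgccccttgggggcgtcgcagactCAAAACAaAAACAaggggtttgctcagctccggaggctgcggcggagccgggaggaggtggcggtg
Irs2 promoter, chr8:11008880-11009179, strand -: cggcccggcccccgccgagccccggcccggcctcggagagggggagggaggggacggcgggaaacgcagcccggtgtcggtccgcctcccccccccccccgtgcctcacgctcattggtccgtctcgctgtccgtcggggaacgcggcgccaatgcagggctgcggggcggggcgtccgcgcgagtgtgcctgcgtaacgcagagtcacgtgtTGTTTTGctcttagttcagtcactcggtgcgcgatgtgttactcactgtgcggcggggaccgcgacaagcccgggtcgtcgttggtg
In the *Sesn1* promoter the match begins 22 bases after the start of the transcript, and in the *Irs2* promoter it begins 37 bases before. *Foxo4* and *S1pr1* had no promoter among those listed, so theirs were not searched. The arrays do not measure binding, and a match is a description of the letters only.

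On these arrays, each probe's level was the log2 of its signal minus the 75th percentile of its array, so that 0 is the level of that percentile and a difference of 1 between samples is a doubling of the signal. Levels of different probes cannot be set against each other. This percentile was a signal of 908 to 1137, with a median local background of 38 to 39, and 23678 to 24701 probes per array were well above background. All 4 arrays shared 1 slide, in the order EMPTY replicates 1 and 2, *Mir195* replicates 1 and 2, so position and virus cannot be told apart. The arrays nearest to each other were EMPTY replicate 2 and *Mir195* replicate 1, with a median absolute log2 difference of 0.10 over 23723 probes, against 0.15 between the EMPTY arrays and 0.20 between the *Mir195* arrays. Markers of precursor and B lineage cells had 7 of 10 genes well above background on every array, with a summed level of 88.8 to 94.4 times the 75th percentile with EMPTY and of 102 on either *Mir195* array. The samples were bulk cultures, in which fewer cells of a type and less RNA per cell cannot be told apart.

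*Ebf1*, the disrupted gene, has 1 probe, bright on every array. Its level was 1.998 and 1.88 with the EMPTY virus and 1.85 and 2.02 with *Mir195*, and the groups overlapped. No wild-type array was analysed here and it is not known whether the probe lies in the disrupted part, so this signal checks neither the genotype nor the labels. The array has no probe for *Mir195*.

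The question for the Foxo genes was whether the *Mir195* virus was accompanied by a change in the factors' own transcripts or in those of the genes they induce. All 12 member probes were well above background on all 4 arrays and were tested. At an adjusted p under 0.05, limma called 0 of the 12 member probes, beside 0% of all 23723 probes tested. No member probe reached an unadjusted p of 0.05 either, a limit passed by 8.38% of all tested probes, 6.32% in the direction of higher signal with *Mir195* and 2.07% in the direction of lower. The lowest adjusted p among the members was 0.702 for *Sesn1*, and over all probes it was 0.0995. Without *Mir195* replicate 1 limma called 880 probes and without *Mir195* replicate 2 it called 3, but no member probe in either case. The signal of both *Mir195* arrays exceeded that of both EMPTY arrays at 2 of the 12 probes, beside 23.6% of all tested probes, and below for 1 of 12, beside 14%. Separation in either direction was thus found for 3 of 12 member probes and for 37.6% of all tested probes. The mean was higher with *Mir195* for 2 of 12 member probes and for 53.4% of all tested probes. The share of all was 64.7% with the normexp background correction, with which *S1pr1*, *Foxo3* and both *Foxo4* probes were higher as well. It was 48.7% with quantile normalization and 33% with scaling by the median, neither of which changed the sign of a member probe. With 2 arrays a virus, an exact two-sided permutation test of a probe cannot give a p under 0.333.

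**Figure D1:**
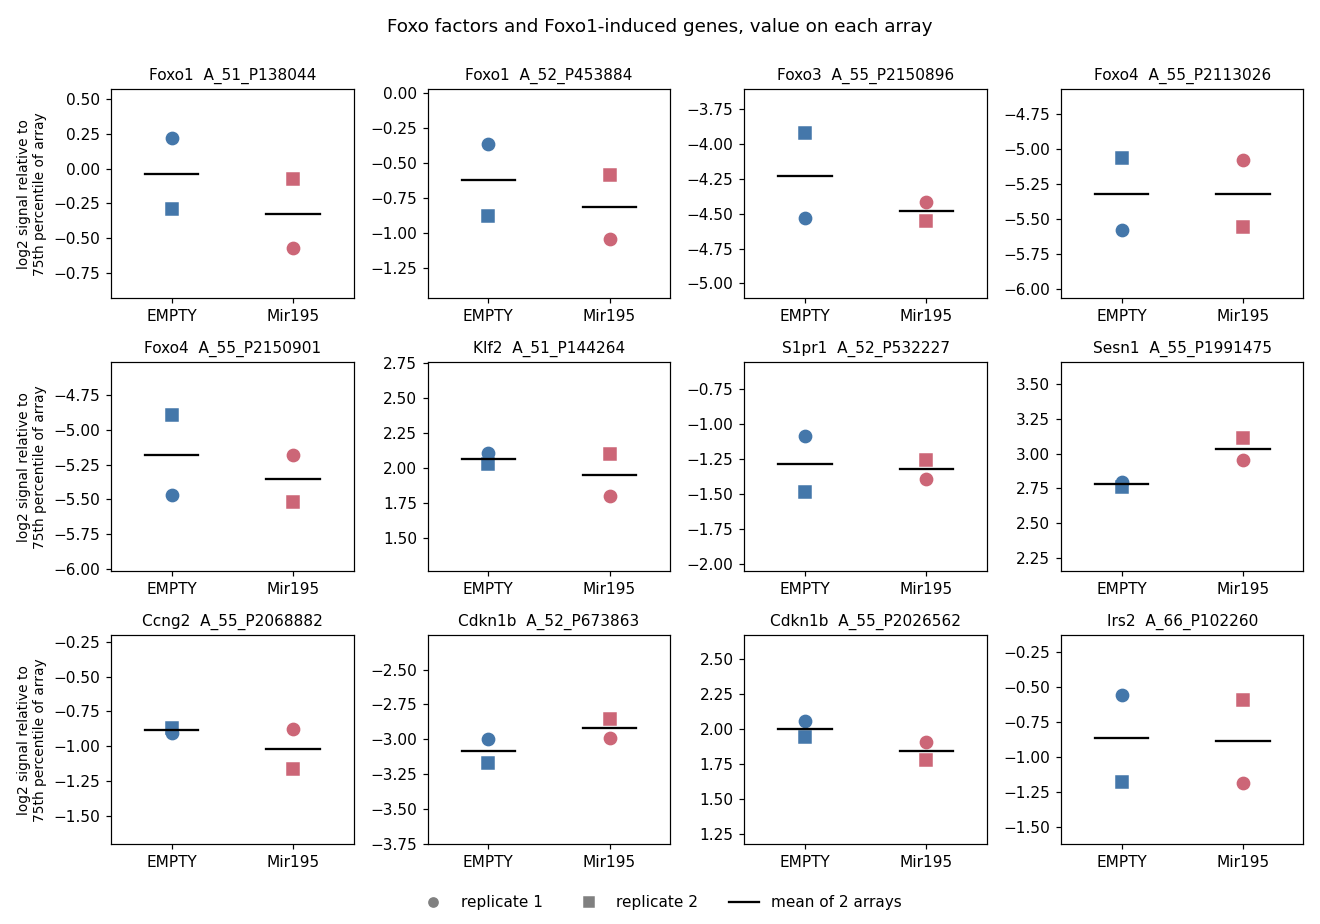
Level of each of the 12 member probes on each array, in log2 units from the array's 75th percentile (vertical axis, the same span in every panel but a different position), for the EMPTY and *Mir195* viruses. Circles are replicate 1, squares replicate 2 and bars the mean of 2 arrays; the viruses separate for *Sesn1* and for the *Cdkn1b* probes, which separate in opposite directions, and overlap for the other 9 probes.

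*Foxo1*, the Foxo factor known for its role in early B cells, had 2 probes. The level at probe A_51_P138044 was 0.22 and -0.29 with EMPTY, against -0.57 and -0.07 with *Mir195*. At probe A_52_P453884, from another stretch of the transcript, it was -0.36 and -0.88 with EMPTY and -1.05 and -0.58 with *Mir195*. At both probes EMPTY replicate 1 was highest, *Mir195* replicate 1 lowest, and the viruses overlapped. The log2 fold change of *Mir195* over EMPTY was -0.28 at the former probe (standard error 0.26, 95% interval -0.96 to 0.39, limma adjusted p = 0.875). At the latter it was -0.19 (standard error 0.25, interval -0.85 to 0.47, limma adjusted p = 0.917). The intervals include no difference, a decrease by nearly 1 on the log2 scale and an increase of up to 0.39 or 0.47. The 2 arrays of each virus differed from each other by 0.46 to 0.52 at these probes. At A_51_P138044 the sign was the same under the 9 alternative processing steps that can move an estimate, 5 of scaling, background or table and 4 that leave out an array, with values of -0.54 to -0.03, but it lay at -0.03 without EMPTY replicate 1 and -0.04 without *Mir195* replicate 1. At A_52_P453884 it turned to 0.066 without EMPTY replicate 1 and to 0.039 without *Mir195* replicate 1.

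*Foxo3*, a second factor of the family with a broad role in quiescence and survival, was dim. Its probe read -4.53 and -3.93 with the EMPTY virus and -4.41 and -4.55 with *Mir195*, background-subtracted signals of 39.6 to 68.3 that the scanner software still placed well above background on every array. Only EMPTY replicate 2 stood apart, and the viruses overlapped. The log2 fold change was -0.25 (standard error 0.23, 95% interval -0.86 to 0.35, limma adjusted p = 0.876). Without EMPTY replicate 2 it was 0.050, and with the normexp background correction 0.094, so that no direction can be given.

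*Foxo4*, the X-linked member of the family, was dimmer still, with signals of 19.7 to 34.9 at probes A_55_P2113026 and A_55_P2150901. These share 52 of their 60 bases and are not independent measurements. The former gave -5.58 and -5.06 with EMPTY and -5.08 and -5.56 with *Mir195*, and the latter -5.47 and -4.89 against -5.18 and -5.52. In each virus one array was high and the other low. The log2 fold change was -0.0016 at the former (standard error 0.25, 95% interval -0.67 to 0.66, limma adjusted p = 0.999). It was -0.17 at the latter (standard error 0.24, interval -0.81 to 0.47, limma adjusted p = 0.921). The sign depended on the processing at both, with 0.27 and 0.16 after normexp and 0.26 and 0.12 without EMPTY replicate 2; at A_55_P2113026 it also turned without *Mir195* replicate 2, to 0.24. *Foxo6* had 2 probes, and neither was well above background on any array.

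Among the genes that FOXO1 induces, *Klf2* and *S1pr1* act in lymphocyte traffic. *Klf2* encodes a Krüppel-like factor that keeps lymphocytes quiescent and recirculating. It read 2.11 and 2.02 with the EMPTY virus and 1.80 and 2.10 with *Mir195*, and only *Mir195* replicate 1 stood apart from the other 3 arrays. *Mir195* minus EMPTY gave a log2 fold change of -0.12 (standard error 0.15, 95% interval -0.51 to 0.28, limma adjusted p = 0.915), and it was 0.032 without *Mir195* replicate 1. *S1pr1*, itself a gene that KLF2 induces, encodes the sphingosine-1-phosphate receptor by which lymphocytes leave tissues. Its level was -1.09 and -1.49 with EMPTY and -1.39 and -1.26 with *Mir195*, so that both *Mir195* arrays lay between the EMPTY arrays. This amounts to a log2 fold change of -0.04 (standard error 0.18, interval -0.50 to 0.43, limma adjusted p = 0.980), and it was positive with normexp, at 0.0035, without EMPTY replicate 1, at 0.17, and without *Mir195* replicate 1, at 0.031.

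*Sesn1*, which encodes a sestrin that restrains mTORC1 and limits oxidative damage, had the largest difference in the direction of higher signal among the members. Its level was 2.79 and 2.76 with the EMPTY virus and 2.95 and 3.11 with *Mir195*, and both *Mir195* arrays were above both EMPTY arrays. It differed by a log2 fold change of 0.25, or 1.19-fold (standard error 0.13, 95% interval -0.07 to 0.58, limma adjusted p = 0.702). The sign was positive under the 9 alternatives that can move it, with values of 0.15 to 0.33, and the lowest adjusted p under any alternative was 0.349. Its relatives *Sesn2* and *Sesn3*, also known as Foxo genes, differed in the other direction, with log2 fold changes of -0.22 and -0.18 and both *Mir195* arrays below both EMPTY arrays (limma adjusted p = 0.821 and 0.807).

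*Ccng2* and *Cdkn1b* encode proteins of cell cycle exit, cyclin G2 and the cyclin-dependent kinase inhibitor p27. *Ccng2* read -0.91 and -0.87 with EMPTY and -0.88 and -1.16 with *Mir195*, and 3 of the 4 arrays were nearly level while *Mir195* replicate 2 was lower. The log2 fold change was -0.13 (standard error 0.15, 95% interval -0.52 to 0.25, limma adjusted p = 0.899), and without *Mir195* replicate 2 it was 0.0088.

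The *Cdkn1b* probes disagreed. The brighter, A_55_P2026562, read 2.06 and 1.95 with EMPTY and 1.91 and 1.78 with *Mir195*, both *Mir195* arrays being lower. Its log2 fold change was -0.16 (standard error 0.13, 95% interval -0.49 to 0.17, limma adjusted p = 0.849). The dimmer, A_52_P673863, read -3.00 and -3.17 with EMPTY and -2.99 and -2.86 with *Mir195*, both *Mir195* arrays being higher. Its log2 fold change was 0.16 (standard error 0.13, interval -0.18 to 0.51, limma adjusted p = 0.852). The probes do not overlap end to start in sequence and are listed by the array under different transcript accessions. Each kept its sign under the 9 alternatives that can move it, from -0.26 to -0.09 at the former and from 0.07 to 0.25 at the latter, so that the gene as a whole has no single direction. The methods name a one-sample t-test without saying what it was applied to. Applied here to the log2 ratios of same-numbered replicates, a choice the labels do not settle, it gave, at the former probe, an unadjusted p of 0.0236 and an adjusted p of 0.9997; it was the only member probe under 0.05 by that test, beside 4.8% of all tested probes.

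*Irs2* encodes an adaptor that links the insulin and cytokine receptors to PI3K, upstream of Akt. Its level was -0.56 and -1.18 with the EMPTY virus and -1.18 and -0.59 with *Mir195*, and each virus had one array near each of these levels. In the mean, the log2 fold change was -0.02 with the widest interval of the members, -0.81 to 0.76 (standard error 0.30, limma adjusted p = 0.994). It was 0.29 without EMPTY replicate 1 and 0.28 without *Mir195* replicate 1.

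**Figure D2:**
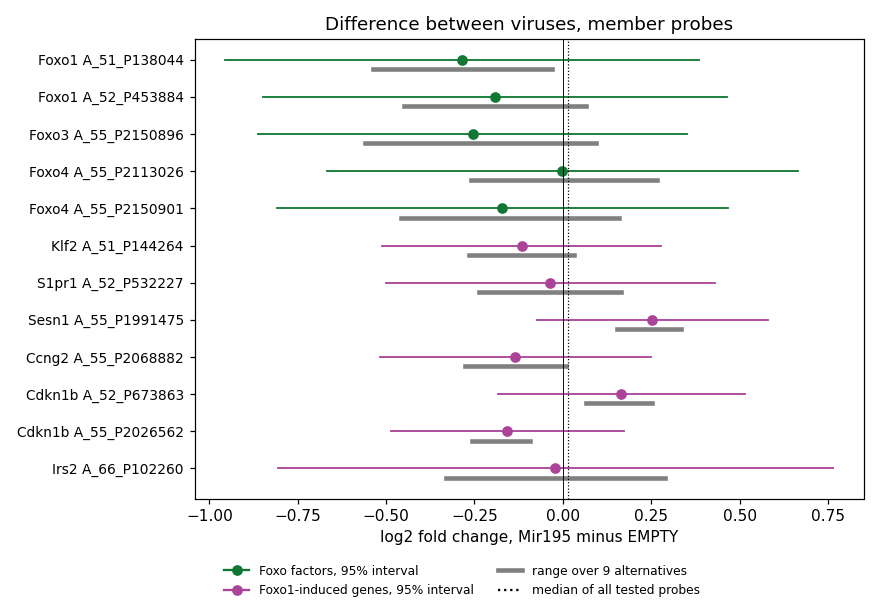
Log2 fold change of *Mir195* over EMPTY (horizontal axis) for each member probe; points and thin lines are the estimate and its 95% interval from limma, the grey bars the range over the 9 alternative processing steps that can move an estimate, and the dotted line the median of all tested probes, 0.01. Every interval includes 0, and the grey bars of *Sesn1*, both *Cdkn1b* probes and *Foxo1* A_51_P138044 lie on one side of it.

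With each gene represented by its brightest tested probe, the 3 Foxo factors were all lower on average with *Mir195*, and none of them separated the viruses. Their median log2 fold change was -0.25, beside 0.01 over all 19037 tested genes, of which 9997 were higher and 9040 lower. This median was 0.094 with normexp and 0.050 without EMPTY replicate 2. Of the 6 induced genes, 1 was higher and 5 were lower, with 1 above, 1 below and 4 overlapping between the viruses. Over all 19037 tested genes, 4439 were above and 2722 below. The median of the induced genes was -0.08. It was 0.045 without EMPTY replicate 1, -0.19 without EMPTY replicate 2 and 0.032 without *Mir195* replicate 1. Neither group held a called gene. The sign of the induced genes' median depended on which array was left out. That of the Foxo factors turned only without EMPTY replicate 2, and lay from -0.46 to -0.18 without any other array.

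At *Foxo1*, *Foxo4* and *Irs2* the arrays of the same virus differed by more than the viruses did, whereas at *Sesn1* and the brighter *Cdkn1b* probe they differed by less. EMPTY replicate 1 exceeded EMPTY replicate 2, and *Mir195* replicate 2 exceeded *Mir195* replicate 1, at *Irs2*, by 0.62 and 0.59 on the log2 scale, and at both *Foxo1* probes, by 0.51 and 0.50 and by 0.52 and 0.46. The *Foxo4* probes ran the other way, by -0.52 and -0.48 and by -0.57 and -0.34. This pattern was described after the values had been seen, and replicate numbers have no order. At a limit of 0.25 for both differences, the former direction was met by 3 of the 12 member probes, 25%, beside 5.51% of all tested probes, and the reverse by 2, 16.7%, beside 3.76%. As the *Foxo1* probes measure the same gene and the *Foxo4* probes overlap, these probes stand for only *Foxo1*, *Irs2* and *Foxo4*. *Foxo1* and *Irs2* were thus high on the same arrays, EMPTY replicate 1 and *Mir195* replicate 2, whichever the virus.

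With each other gene of the pathway counted at its brightest tested probe, the shares were near those of all probes. Among 51 further genes of the Foxo pathway, 4 met the limit, 7.84%, beside 5.51% of all tested probes, and 2 met it in the reverse direction, 3.92% beside 3.76%. The former included *Sgk1*, a kinase that phosphorylates Foxo proteins, by 0.59 and 0.71, *Rbl2*, by 0.36 and 0.52, and *Fasl*, by 0.51 and 0.29. A dimmer probe of *Txnip*, not counted, met the limit as well, by 0.53 and 0.55. *Trim63* met the reverse at its brighter probe but not at its dimmer, with -0.74 and -0.07. *Ptprc*, the pan-leukocyte gene of CD45, differed by 0.65 and 0.86. Of the 5 NK cell markers, *Ncr1*, by 1.29 and 0.56, and *Klrb1c*, by 1.04 and 0.37, met the limit, and *Gzmb*, *Klrd1* and *Nkg7* did not. The summed level of these markers, all well above background, was 32.2 and 26.9 with EMPTY, against 24.5 and 28.4 with *Mir195*, while that of the 9 OP9 stroma markers, of which *Dcn*, *Lum* and *Postn* were well above background on no array, was 9.69 and 10.6, and 9.35 and 17.1. The 5 T cell markers summed to 37.7 and 44.0 with EMPTY and 40.9 and 38.5 with *Mir195*, the reverse order. Nearly all of that sum was *Lck*, at 5.18 and 5.42 with EMPTY and 5.31 and 5.23 with *Mir195*. *Bcl11b*, well above background only with EMPTY, met the limit in the direction of *Foxo1*, by 0.73 and 0.73. *Cd3d*, *Cd3e*, *Cd3g* and *Lck* met it in neither direction. The 6 myeloid markers summed to 12.8 on EMPTY replicate 1 and to 14.7 or more on the other arrays. The part of these cells in the levels of *Foxo1* and *Irs2* was not tested.

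**Figure D3:**
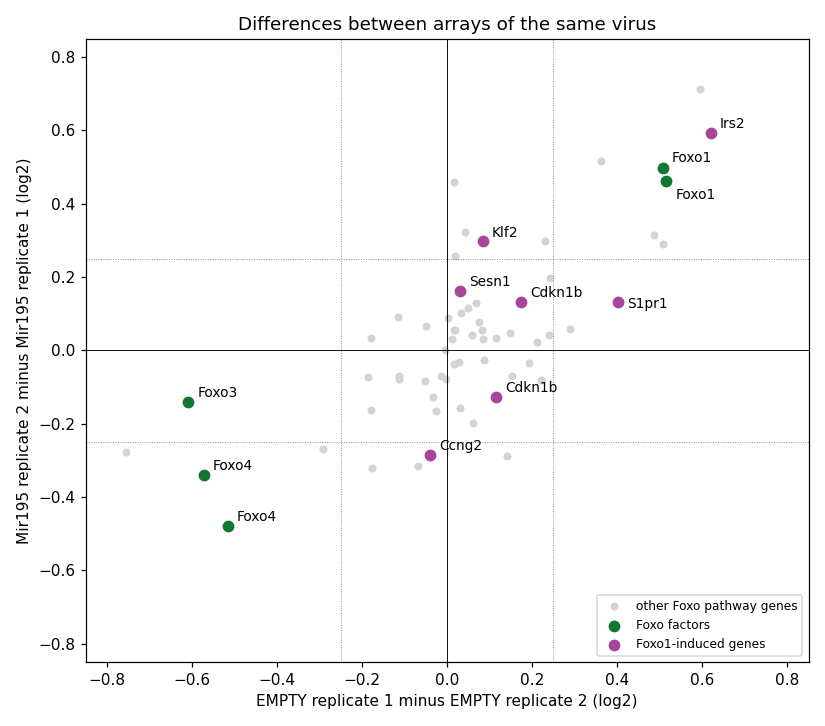
Log2 difference between the EMPTY arrays (replicate 1 minus replicate 2, horizontal axis) and between the *Mir195* arrays (replicate 2 minus replicate 1, vertical axis) for the member probes, coloured and named, and for 51 other genes of the Foxo pathway in grey. Dotted lines mark 0.25 in either direction; *Foxo1* and *Irs2* lie at the upper right and *Foxo4* at the lower left.

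To see which genes most resembled *Foxo1*, the 4 values of each of 22568 probes well above background on all arrays were centred on their mean and compared with those of *Foxo1* probe A_51_P138044. The nearest were *Snap47*, at a distance of 0.04, *Cables1*, at 0.05, and *Gem*, at 0.06, and 15 probes of other genes lay within 0.1. The second *Foxo1* probe lay at 0.10, *Irs2* at 0.28, *S1pr1* at 0.37 and *Klf2* at 0.37. *Foxo3* and *Foxo4* were the farthest members, at 0.91 and at 0.97 to 1.04. With 4 arrays many probes share any pattern, and the distances are a description.

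The lists of other Foxo pathway genes, drawn from general knowledge with earlier results of these data known, held no called gene. Of 10 lymphocyte genes that FOXO1 binds or induces, 9 passed the filter on dim probes and were tested. Their means were higher for 4 and lower for 5, with 3 above and 2 below, 2 at an unadjusted p under 0.05 and a median log2 fold change of -0.07. Over all tested probes, 23.6% were above, 14% below and 8.38% under that unadjusted limit in limma. *Rag1* and *Rag2*, whose products cut DNA at the immunoglobulin loci, were the highest. *Rag1* read -2.21 and -2.26 with EMPTY and -1.88 and -1.55 with *Mir195*, a log2 fold change of 0.52 (standard error 0.16, limma adjusted p = 0.527). *Rag2* read -0.31 and -0.36 with EMPTY and -0.07 and 0.05 with *Mir195*, a log2 fold change of 0.32 (standard error 0.12, limma adjusted p = 0.582). These are the 2 genes under an unadjusted p of 0.05, and neither passed the adjustment. The values are those of the brighter probe of each gene, and each also had a dimmer tested probe. At the dimmer probes of *Rag1* and *Rag2* the EMPTY arrays differed by -0.34 and -0.34, against 0.04 and 0.05 at the brighter. The fold changes of the dimmer probes are not given here. *Ccr7*, a chemokine receptor for entry into lymph nodes, read 4.46 and 4.24 with EMPTY and 4.05 and 3.97 with *Mir195*, a log2 fold change of -0.34 (standard error 0.14, limma adjusted p = 0.614). *Blnk*, an adaptor of the pre-B cell receptor, differed by -0.10 (standard error 0.11, limma adjusted p = 0.906). *Il7r*, the receptor for a cytokine of the culture, overlapped between the viruses at 3.46 and 3.22 against 3.29 and 3.49.

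Of 26 Foxo genes of stress, atrophy, cell death and metabolism, 21 were tested, 8 higher and 13 lower, with 1 above and 5 below, 1 at an unadjusted p under 0.05 and a median of -0.04. The shares over all tested probes were 23.6%, 14% and 8.38%, in that order. *Fasl* and *Tnfsf10*, which encode the death ligands FASL and TRAIL, were the lowest that did not overlap. *Fasl* read -2.23 and -2.74 with EMPTY and -3.19 and -2.90 with *Mir195*, a log2 fold change of -0.57 (standard error 0.22, limma adjusted p = 0.607). *Tnfsf10* read 0.08 and 0.05 with EMPTY and -0.22 and -0.26 with *Mir195*, a log2 fold change of -0.30 (standard error 0.11, limma adjusted p = 0.586), and it was the gene under the unadjusted limit. *Fbxo32*, a ubiquitin ligase of muscle atrophy, was the only gene of the list above without overlap, by 0.13 (standard error 0.11, limma adjusted p = 0.876).

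Of 21 proteins that act on Foxo factors, all were tested, 10 higher and 11 lower, with 4 above and 5 below, none at an unadjusted p under 0.05 and a median of -0.01. Among all tested probes, 23.6% were above, 14% below and 8.38% under that unadjusted limit. The log2 fold changes of this list spanned -0.18 to 0.18, narrower than in the lymphocyte and stress lists. *Mdm2* and *Usp7*, a ubiquitin ligase and a deubiquitinase that act on Foxo proteins, had the largest positive differences without overlap, 0.18 and 0.12 (standard errors 0.12 and 0.11, limma adjusted p = 0.807 and 0.882). *Ep300*, which encodes an acetyltransferase, had the largest negative one, -0.16 (standard error 0.12, limma adjusted p = 0.842). Among the kinases, *Akt1* lay at -0.01 and *Akt2* at 0.02, with adjusted p of 0.996 and 0.978 in limma.

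**Figure D4:**
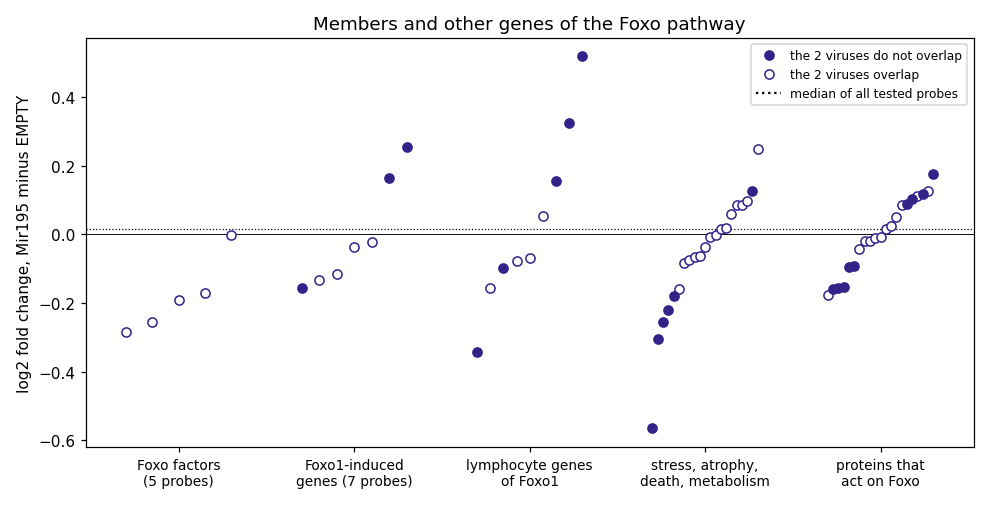
Log2 fold change of *Mir195* over EMPTY (vertical axis) for the 5 probes of the Foxo factors, the 7 probes of the induced genes and 1 probe for each gene of the other Foxo pathway lists, ordered by value within a list. Filled points are probes whose viruses do not overlap, open points those that overlap, and the dotted line is the median of all tested probes; *Rag1* is the highest point, at 0.52, and *Fasl* the lowest, at -0.57.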

How the data were processed

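Per the labels and the methods, total RNA from each of 4 samples was labelled with Cy3 and hybridised to Agilent Whole Mouse Genome arrays. Per spot, the authors deposited an intensity from the scanner software, taken after subtraction of background and a spatial trend (Feature Extraction 9.1.3.1 in the file headers, 11.5.1.1 in the submitters' processing notes). A table of processed log2 values, scaled to each array's 75th percentile, was deposited as well. Over probes, it correlated with the values used here at r = 0.998.

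Of 44397 spots per array, 43020 were not controls, none was saturated and 21 to 65 were outliers. Repeated spots were averaged as log2 values, from which the 75th percentile of the 39429 probes of an array was subtracted. Symbols came from accessions in GRCm38.p6 for 26055 probes and otherwise from the array. The test covered 23723 probes that exceeded background clearly on both arrays of at least 1 virus, after 101 probes with an outlier spot were left out. Samples were grouped by titles. Viruses were compared by limma (version 3.58.1; lmFit, then eBayes) under R version 4.3.3, files being read by data.table, version 1.17.8. Tests were two-sided, with Benjamini-Hochberg adjustment over all tested probes and a threshold of 0.05. P-values measure only the spread between these samples, which may be technical, and the number of arrays limits the precision. The fit was tested on simulated data.

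The members and lists were chosen with earlier results of these data known. Named are all member probes, *Ebf1*, the 2 highest and 2 lowest genes of each other list among those well above background on all arrays without overlap, and the 3 nearest in pattern to *Foxo1*, except a few genes whose values are not reported here. *Akt1*, *Akt2*, *Sesn2*, *Sesn3*, *Il7r*, the genes that met the limit within a virus and the cell type markers were named after their values were seen. As alternatives, background was corrected by normexp (offset 50), arrays were scaled by quantiles or medians, and the following were tried: the 75th percentile over detected probes, the authors' table, other filters on dim probes, eBayes with trend and robust estimation, the replicate block, each array left out, and the methods' t-test. All 4 samples were used.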

Additional observations from a re-analysis of the deposited data

How the results depend on the processing

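No member probe was called under any of the 15 alternatives, and the lowest adjusted p of a member among them was 0.313, at *Foxo4* A_55_P2113026 with normexp. Over all tested probes, 0 were called as reported, 3 with scaling by the median, and 0 to 880 when single arrays were left out, the highest without *Mir195* replicate 1. Those fits leave 1 array in a group, which is assumed to vary like the other group. Filters, eBayes settings, the block and the methods' t-test, 6 of the 15, cannot move an estimate. Under the other 9, member probes kept their sign in 91 of 108 values and reversed it in 17. With normexp, the log2 fold changes turned to 0.0035 for *S1pr1*, 0.094 for *Foxo3*, and 0.27 and 0.16 for *Foxo4*. With the 75th percentile taken only over probes detected everywhere, *Foxo4* A_55_P2113026 turned to 0.016. With single arrays left out, the range was -0.45 to 0.066 for *Foxo1* A_52_P453884, -0.56 to 0.050 for *Foxo3*, -0.26 to 0.26 and -0.46 to 0.12 for *Foxo4*, -0.27 to 0.032 for *Klf2*, -0.24 to 0.17 for *S1pr1*, -0.28 to 0.0088 for *Ccng2* and -0.33 to 0.29 for *Irs2*. The median of the Foxo factors was 0.094 with normexp and ranged from -0.46 to 0.050 with single arrays left out, and that of the induced genes from -0.19 to 0.045. The cause of these changes was not tested.

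Normexp moved the median log2 fold change of all probes from 0.01 to 0.07, and scaling by the median moved it to -0.08. With the replicate block, 5 probes were called over all tested probes and 0 of the members, and it changed no other call. The deviations of same-numbered arrays from their group means correlated at -0.10 over 23723 probes. In groups of this size, crossing the numbers only turns the sign of that correlation. The correlation therefore cannot show whether same-numbered arrays were paired, and the labels do not say. A crossed pairing, chosen after seeing the data, called 0 probes. The slide was not run as a block, since all arrays share 1 slide. *Foxo3* and *Foxo4* gave signals of 19.7 to 68.3, beside a median local background of 38 to 39.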
